A study of Homo sapiens with 6 samples.

Results

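The Hippo kinases TAOK1, TAOK2, TAOK3, MAP4K1, MAP4K2, MAP4K3, MAP4K4, STK3, STK4 and LATS1 were followed in NALM6 cells treated with verteporfin or with DMSO, the control. These 10 genes were taken by name, from 13494 genes for which FPKM (fragments per kilobase of transcript, scaled to the mapped fragments of the library) could be summed over annotated transcripts, and all 10 were tested. NALM6, an established human cell line, derives from an acute lymphoblastic leukemia of B-cell precursors, and was grown in RPMI medium with 10% FBS. Verteporfin is a porphyrin known to block the binding of YAP to TEAD factors. There were 3 libraries of the verteporfin group and 3 of the DMSO group. The labels give a dose of 0.6 mmol/L for 48 h, with a unit that may not be the one meant, in a protocol worded for proliferation assays. The same protocol stands with the DMSO libraries and names verteporfin alone. Whether replicates are separate cultures is not stated in the labels. Each p therefore sets a difference between groups against variation among the libraries at hand, which could be technical.

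In the Hippo pathway, TAOK and MAP4K kinases act at the top. TAOK kinases phosphorylate STK3 and STK4 (known as MST2 and MST1), which switch on LATS1 and LATS2, while MAP4K kinases can phosphorylate LATS directly. Active LATS kinases phosphorylate the coactivators YAP and TAZ, which then leave the nucleus. YAP1 and WWTR1 (TAZ) are low or silent in much of the blood lineage, where STK4 is known for keeping lymphocytes alive and MAP4K1 (HPK1), a kinase found mainly in blood cells, restrains signals from antigen receptors.

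No kinase gene of this chain passed the test with verteporfin. By limma on log2 of FPKM + 1, 0 of 10 kinase genes had an adjusted p under 0.05 and 0 had an unadjusted p under 0.05, where 0.0154% and 8.84% of the 12952 genes tested did. The log2 fold change (verteporfin minus DMSO) was above 0 for 5 genes and below 0 for 5, with a median of 0.048 beside 0.0074 over all genes tested, and all 10 of the 95% intervals included 0. TAOK1 and TAOK2 were lower in each verteporfin library than in any DMSO library, and no kinase gene was higher in that way. Over all tested genes the groups did not overlap for 7.74% with lower and 6.49% with higher verteporfin values. With library weights, by which limma gives noisier libraries less say, 8.35% of all genes and 0 of the 10 kinase genes passed. For only 10 genes, 0 is not far from that share. This fit gave verteporfin replicate 3 a weight of 3.88 and verteporfin replicates 1 and 2 weights of 0.416 and 0.363.

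The libraries carried markers of B-cell precursors. All 10 markers of that stage were measured, with summed levels of 1182 to 1913 FPKM in verteporfin libraries and 1520 to 1848 FPKM in DMSO libraries. No marker fixed for T cells, erythroid cells, or epithelial cells and fibroblasts was among the FPKM values used here. Of the myeloid markers only LYZ was, at 1.33 to 2.05 FPKM in verteporfin and 2.01 to 2.56 FPKM in DMSO, and of the NK cell markers only NKG7, at 1.07 to 1.35 FPKM in verteporfin and 0 to 1.62 FPKM in DMSO. In bulk RNA a change in the number of cells that express a gene and in the RNA per cell cannot be told apart. The share of all transcripts listed at 0 was 5.23% to 11.4% in verteporfin libraries and 13.98% to 18.7% in DMSO libraries, with verteporfin replicate 2 the lowest. This library was also at an end of the verteporfin values for all 10 kinase genes, and values without it are given where they change a direction. Of the 80 listed kinase transcripts, 13, 6 and 7 were at 0 in verteporfin replicates 1 to 3, against 18, 13 and 17 in DMSO replicates 1 to 3, and the part of this difference in the transcript results below was not tested.

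**Figure D1:**
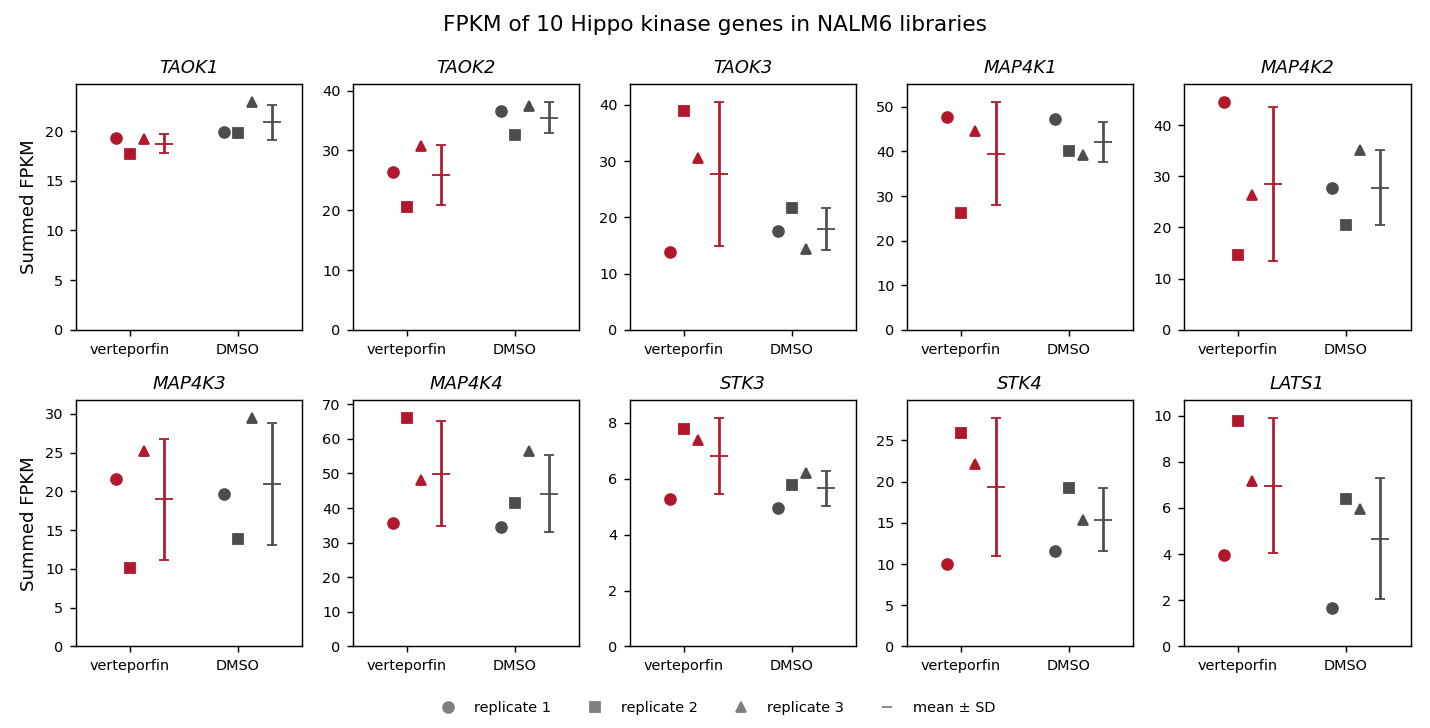
FPKM summed per gene for the 10 kinases (vertical axis, linear, starting at 0), with 1 symbol per library for verteporfin (red) and DMSO (gray) and the mean ± SD beside them (n = 3 each). The groups do not overlap for TAOK1 and TAOK2, both lower with verteporfin, and verteporfin replicate 2 is the lowest verteporfin library for MAP4K1 to MAP4K3 and the highest for TAOK3, MAP4K4, STK3, STK4 and LATS1.

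TAOK1 encodes a kinase that activates STK3 and STK4 and also acts on microtubules. TAOK1 (ENSG00000160551) had 19.3, 17.7 and 19.2 FPKM in verteporfin replicates 1 to 3, against 19.9, 19.8 and 22.9 FPKM in DMSO replicates 1 to 3. It was the steadiest of the 10 genes in verteporfin, with a coefficient of variation of 5.05% in verteporfin and 8.54% in DMSO. Although the groups did not overlap, the log2 fold change was -0.15 (95% interval -0.74 to 0.44, adjusted p = 0.916 by limma). Below that even sum, the 2 leading transcripts of TAOK1 varied widely. TAOK1-205, annotated with 526 bases and an incomplete coding part of 238 bases, had 11.1, 2.13 and 7.97 FPKM in verteporfin and 13.4, 10.1 and 12.4 FPKM in DMSO. The full-length TAOK1-201 (12407 bases) had 5.10, 14.4 and 9.47 FPKM in verteporfin and 5.71, 8.33 and 7.88 FPKM in DMSO. The full-length transcript was thus high where the short one was low, most of all in verteporfin replicate 2. When only transcripts of 2000 bases or more were summed, a choice made after the values were seen, the log2 fold change of TAOK1 was 0.27 (adjusted p = 0.883) and the groups overlapped, so that the direction of TAOK1 rests on the short transcript.

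TAOK2, which encodes a second activator of STK3 and STK4 with roles in stress signaling through p38, had the lowest log2 fold change of the 10 genes. TAOK2 (ENSG00000149930) had 26.3, 20.6 and 30.7 FPKM in verteporfin replicates 1 to 3, against 36.5, 32.5 and 37.5 FPKM in DMSO replicates 1 to 3. The highest verteporfin library stayed below the lowest DMSO library. The log2 fold change was -0.46 with a standard error of 0.27 (95% interval -1.06 to 0.15, adjusted p = 0.649 by limma), which did not pass. It was the 1 kinase gene for which the groups stayed apart under all 3 ways of summing. From transcripts of 2000 bases or more it had 22.7 ± 3.31 FPKM in verteporfin and 31.9 ± 1.01 FPKM in DMSO (SD, n = 3), or -0.48 on the log2 scale (95% interval -1.06 to 0.09, adjusted p = 0.683). From protein coding transcripts it had 21.6 ± 2.78 FPKM in verteporfin and 28.9 ± 1.96 FPKM in DMSO (SD, n = 3), a log2 fold change of -0.41. Under these 2 choices the verteporfin values lay below those of DMSO for 7.41% and 7.87% of all genes, and above for 6.23% and 6.26%. No kinase gene was among those above. TAOK1 was also below from protein coding transcripts (log2 fold change -0.19). Of the main TAOK2 transcripts, TAOK2-201 was lower in every verteporfin library (10.1, 8.85 and 9.16 FPKM) than in any DMSO library (12.4, 21.1 and 10.97 FPKM). TAOK2-202, whose coding sequence shares the first 2232 bases with that of TAOK2-201 and then differs, overlapped between the groups, at 10.1, 6.31 and 9.45 FPKM in verteporfin and 14.1, 4.04 and 12.2 FPKM in DMSO.

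TAOK3 encodes the third TAO kinase, known in mouse for a role in B-cell fate in the spleen. TAOK3 (ENSG00000135090) had 13.8, 38.9 and 30.6 FPKM in verteporfin replicates 1 to 3, against 17.6, 21.8 and 14.4 FPKM in DMSO replicates 1 to 3. Verteporfin replicates 2 and 3 lay above all DMSO libraries and verteporfin replicate 1 below them. The log2 fold change was 0.51 (95% interval -0.35 to 1.36, adjusted p = 0.737 by limma), 0.93 when verteporfin replicate 1 was left out and 0.21 when verteporfin replicate 2 was, and none of the 3 passed. With library weights, which gave verteporfin replicate 3 a weight of 3.88 and the other verteporfin libraries 0.416 and 0.363, the log2 fold change was 0.80 (adjusted p = 0.0727).

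Among TAOK3 transcripts, TAOK3-202 (ENST00000419821, 4301 bases) had 3.23, 8.78 and 7.63 FPKM in verteporfin replicates 1 to 3 and was listed at 0 in all 3 DMSO libraries. It was the leading TAOK3 transcript in every verteporfin library and in no DMSO library. It reached the minimum mean of 0.5 FPKM for the test only through its verteporfin values, so that its p is no independent support. Its unadjusted p of 1.69e-04 was the smallest among the 72 kinase transcripts tested, yet it did not pass over the 55148 transcripts tested (adjusted p = 0.177 by limma), and its adjusted p ranged from 0.0793 to 0.548 over the alternative settings. The transcript test called 0.0308% of all transcripts. TAOK3-201 (ENST00000392533, 4384 bases) had lower values on average with verteporfin, at 1.85, 2.78 and 3.18 FPKM in verteporfin and 2.97, 11.8 and 6.01 FPKM in DMSO. It made up 10.3% ± 3.14 of TAOK3 FPKM in verteporfin and 37.7% ± 19.1 in DMSO (SD, n = 3), with a 2-sided exact permutation p of 0.1, which is the least possible with 3 libraries per group (0.857 after adjustment over the 10 genes). In GENCODE 29 both transcripts carry the same coding sequence of 2697 bases and differ outside it. Summed, they had 5.08, 11.6 and 10.8 FPKM in verteporfin and 2.97, 11.8 and 6.01 FPKM in DMSO, which overlapped (2-sided exact permutation p = 0.7). The short TAOK3-218 (613 bases) was at 0, 5.03 and 3.48 FPKM in verteporfin and also listed at 0 in all DMSO libraries. This transcript too reached the minimum only through verteporfin (unadjusted p = 0.0405, adjusted p = 0.759 by limma).

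**Figure D2:**
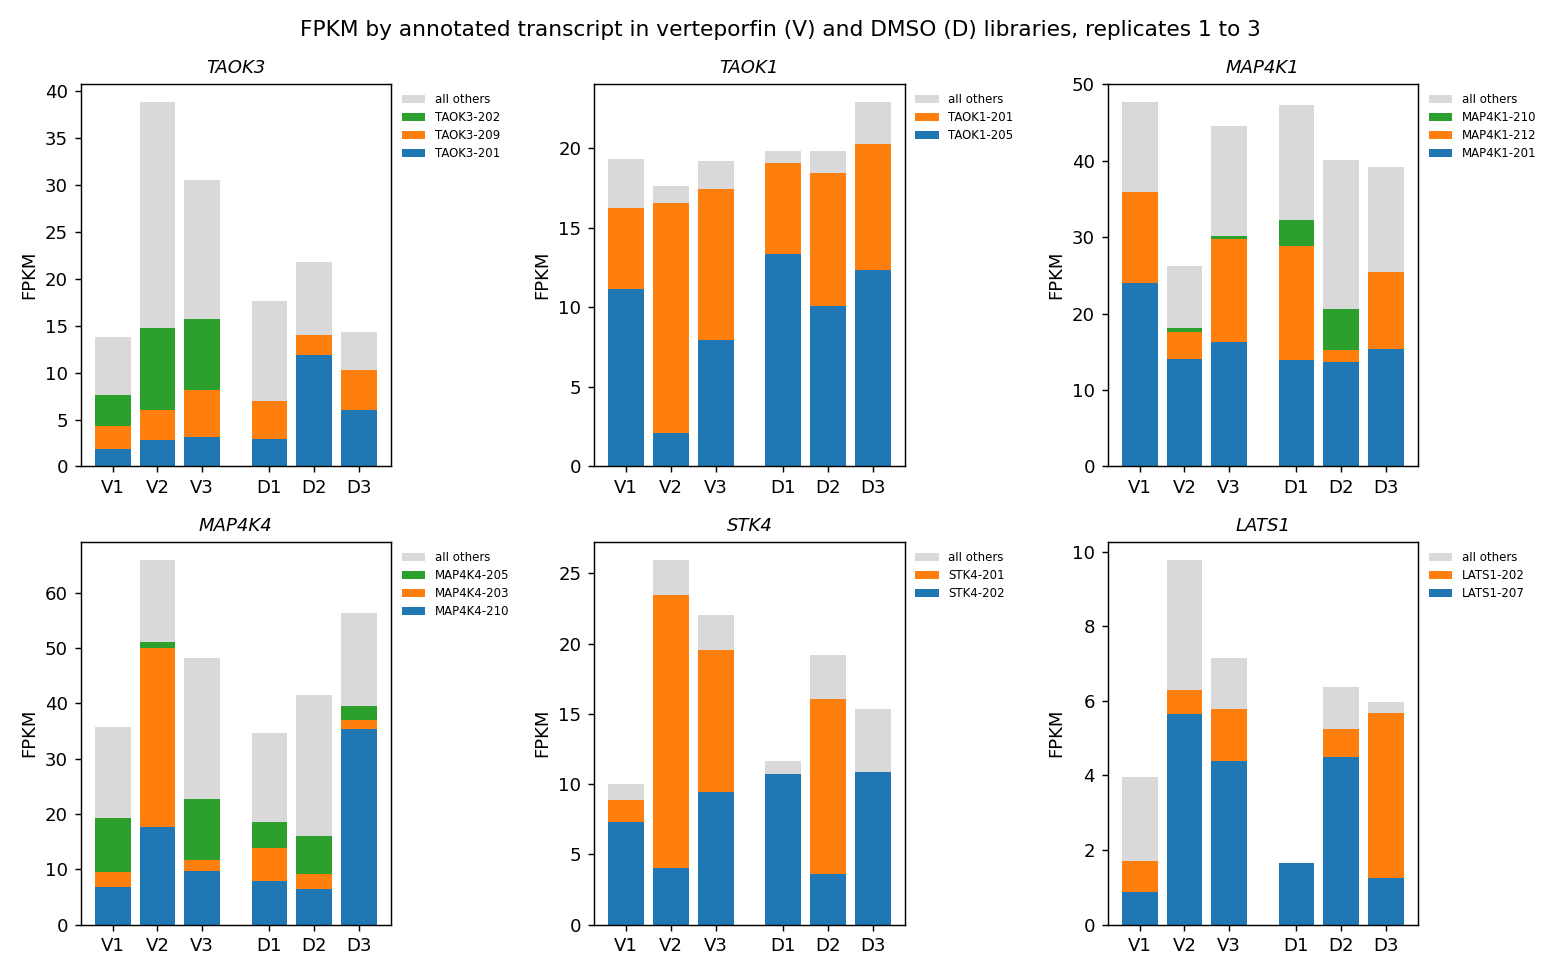
FPKM (vertical axis, linear, starting at 0) of TAOK3, TAOK1, MAP4K1, MAP4K4, STK4 and LATS1 in verteporfin libraries V1 to V3 and DMSO libraries D1 to D3, stacked by annotated transcript. TAOK3-202 (green) appears in the 3 verteporfin libraries and is at 0 in the 3 DMSO libraries, while in STK4 the transcript STK4-201 (orange) is at 0 in DMSO replicates 1 and 3.

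MAP4K1 encodes HPK1, the blood-cell kinase of the family, and was among the most abundant members. MAP4K1 (ENSG00000104814) had 47.7, 26.3 and 44.6 FPKM in verteporfin replicates 1 to 3, against 47.4, 40.1 and 39.2 FPKM in DMSO replicates 1 to 3. Verteporfin replicate 2 stood below all other libraries, and the rest overlapped. Across all libraries the log2 fold change was -0.13 (95% interval -0.80 to 0.53, adjusted p = 0.933 by limma) and 0.13 without verteporfin replicate 2. MAP4K1-201 (ENST00000396857, 2653 bases), the leading transcript of the gene on average, had 24.0, 14.1 and 16.3 FPKM in verteporfin and 13.9, 13.7 and 15.3 FPKM in DMSO. MAP4K1-201 made up 46.8% ± 9.03 of MAP4K1 FPKM in verteporfin and 34.2% ± 4.90 in DMSO (SD, n = 3; 2-sided exact permutation p = 0.2). Transcripts annotated as retaining an intron made up a mean of 22.2% of MAP4K1 FPKM in verteporfin and 34.8% in DMSO, a difference that was not tested. This share was also lower in verteporfin for TAOK2, MAP4K2, MAP4K3 and STK3. It was higher in verteporfin for TAOK1 (10.5% and 7.52%), TAOK3 (16.2% and 11.1%) and MAP4K4 (10.8% and 6.56%). Among the MAP4K1 transcripts so annotated, MAP4K1-206 was lower in each verteporfin library (3.07, 0 and 2.85 FPKM) than in any DMSO library (7.996, 4.19 and 3.81 FPKM), with an adjusted p of 0.76. From protein coding transcripts alone the log2 fold change of MAP4K1 was 0.14 and from transcripts of 2000 bases or more 0.15, so that its sign depended on the transcripts summed.

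A further annotated transcript of the gene, MAP4K1-210 (ENST00000591517), had 0, 0.528 and 0.4 FPKM in verteporfin and 3.49, 5.40 and 0 FPKM in DMSO, so that it was clearly present in a pair of DMSO libraries only (adjusted p = 0.776 by limma, log2 fold change -1.25).

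The closest match to the pattern of MAP4K1 across the 6 libraries was sought among 8571 other genes averaging 5 FPKM or more. By the root mean square distance between log2 values centered on their mean, GRAMD1B (0.0651), RFX1 (0.0657) and SCAMP4 (0.0677) were nearest. GRAMD1B had 33.6, 16.1 and 28.6 FPKM in verteporfin and 32.3, 25.1 and 24.7 FPKM in DMSO. These 3 genes share with MAP4K1 the low value in verteporfin replicate 2, which follows from choosing them by likeness to its values in these same libraries.

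MAP4K2, first known as a kinase of germinal center B cells, was the most scattered gene with verteporfin. MAP4K2 (ENSG00000168067) had 44.5, 14.6 and 26.3 FPKM in verteporfin replicates 1 to 3, against 27.7, 20.4 and 35.1 FPKM in DMSO replicates 1 to 3. The verteporfin libraries spanned the whole DMSO range and beyond. The log2 fold change was -0.06 (95% interval -0.95 to 0.82, adjusted p = 0.978 by limma) and ran from -0.44, without verteporfin replicate 1, to 0.33, without verteporfin replicate 2. Less than in the other kinases came from protein coding transcripts, a mean of 48.2% in verteporfin and 39.7% in DMSO, and 4 different transcripts led in at least 1 library. MAP4K2-202 (ENST00000377350) had 12.9, 2.36 and 2.66 FPKM in verteporfin and 0, 4.65 and 6.89 FPKM in DMSO, and MAP4K2-201 (ENST00000294066) had 8.13, 3.67 and 3.60 FPKM in verteporfin and 4.96, 3.41 and 3.36 FPKM in DMSO. The coding sequences of this pair differ by 24 bases that MAP4K2-202 lacks. They are shown in capitals with 15 shared bases on each side, coding bases 1263 to 1316 of MAP4K2-201, read 5′ to 3′ on the minus strand of chromosome 11 in GENCODE 29 (GRCh38), as for all sequences here.
MAP4K2-201: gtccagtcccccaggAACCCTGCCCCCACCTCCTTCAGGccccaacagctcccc

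MAP4K3 encodes GLK, a kinase linked to the response of mTORC1 to amino acids. MAP4K3 (ENSG00000011566) had 21.6, 10.1 and 25.1 FPKM in verteporfin replicates 1 to 3, against 19.6, 13.8 and 29.4 FPKM in DMSO replicates 1 to 3. In each group the library numbered 2 was lowest and the library numbered 3 highest. For MAP4K3 the log2 fold change was -0.17 (95% interval -1.05 to 0.72, adjusted p = 0.938 by limma), and 0.21 without verteporfin replicate 2. MAP4K3-211, an annotated transcript of 407 bases, made up 45.2% ± 29.9 of MAP4K3 FPKM in verteporfin and 61.6% ± 22.8 in DMSO (SD, n = 3). From transcripts of 2000 bases or more MAP4K3 had 5.73 ± 2.45 FPKM in verteporfin and 3.66 ± 0.957 FPKM in DMSO (SD, n = 3), or 0.47 on the log2 scale (95% interval -0.40 to 1.35, adjusted p = 0.804), so that its sign turned as well. MAP4K3-202 had 0.31, 4.26 and 0 FPKM in verteporfin and was listed at 0 in all DMSO libraries. It lacks 63 coding bases of MAP4K3-201 (ENST00000263881), which are given in capitals with 15 shared bases on each side, coding bases 1042 to 1134, read 5′ to 3′ on the minus strand of chromosome 2.
MAP4K3-201: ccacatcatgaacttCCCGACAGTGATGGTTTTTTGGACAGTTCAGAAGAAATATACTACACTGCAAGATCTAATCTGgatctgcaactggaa

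MAP4K4 encodes a kinase of the STE20 family known from cell migration and from phosphorylation of LATS, and had the highest mean of the 10 genes in both groups. MAP4K4 (ENSG00000071054) had 35.7, 65.9 and 48.2 FPKM in verteporfin replicates 1 to 3, against 34.6, 41.5 and 56.4 FPKM in DMSO replicates 1 to 3. The groups overlapped through most of their range. For MAP4K4 the log2 fold change was 0.16 (95% interval -0.54 to 0.86, adjusted p = 0.926 by limma) and -0.06 without verteporfin replicate 2. The high value of verteporfin replicate 2 lay in MAP4K4-203 (ENST00000347699), at 2.76, 32.4 and 2.04 FPKM in verteporfin and 5.93, 2.73 and 1.51 FPKM in DMSO. The high value of DMSO replicate 3 lay in MAP4K4-210 (ENST00000425019), at 6.78, 17.7 and 9.66 FPKM in verteporfin and 7.90, 6.51 and 35.4 FPKM in DMSO. MAP4K4-205 was the lowest of its group in exactly those libraries, at 9.83, 0.992 and 10.96 FPKM in verteporfin and 4.81, 6.80 and 2.63 FPKM in DMSO. MAP4K4-221 was lower in each verteporfin library (2.18, 2.41 and 2.05 FPKM) than in any DMSO library (3.81, 2.92 and 3.29 FPKM; log2 fold change -0.43, adjusted p = 0.834). The coding sequences of MAP4K4-203 (3720 bases) and MAP4K4-210 (3819 bases) differ by 93 bases that only MAP4K4-203 of the pair holds and 192 bases that only MAP4K4-210 holds. Both stretches are shown in capitals with 15 shared bases on each side, read 5′ to 3′ on the plus strand of chromosome 2, since they set apart the transcripts behind the high values of verteporfin replicate 2 and DMSO replicate 3.
MAP4K4-203: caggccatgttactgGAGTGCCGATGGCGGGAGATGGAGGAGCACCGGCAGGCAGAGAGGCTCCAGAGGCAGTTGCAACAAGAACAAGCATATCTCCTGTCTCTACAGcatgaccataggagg
MAP4K4-210: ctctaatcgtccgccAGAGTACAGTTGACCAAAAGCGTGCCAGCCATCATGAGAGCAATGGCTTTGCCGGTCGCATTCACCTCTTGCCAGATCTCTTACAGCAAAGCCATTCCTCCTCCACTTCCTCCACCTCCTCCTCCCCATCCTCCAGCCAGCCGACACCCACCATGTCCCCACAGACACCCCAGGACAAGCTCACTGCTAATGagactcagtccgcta

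The mammalian Hippo kinases STK3 and STK4 had values above DMSO in a pair of verteporfin libraries and below in verteporfin replicate 1 for STK4. STK4 (ENSG00000101109), which encodes MST1, the main Hippo kinase of lymphocytes, had 9.98, 25.9 and 22.1 FPKM in verteporfin replicates 1 to 3, against 11.6, 19.2 and 15.3 FPKM in DMSO replicates 1 to 3. The verteporfin libraries enclosed the DMSO range. STK3 (ENSG00000104375), which encodes MST2, had 5.27, 7.76 and 7.40 FPKM in verteporfin, against 4.97, 5.77 and 6.22 FPKM in DMSO, and the groups overlapped through verteporfin replicate 1. For STK4 the difference on the log2 scale was 0.24 (95% interval -0.62 to 1.09, adjusted p = 0.897 by limma), and -0.015 without verteporfin replicate 2. For STK3 it was 0.22 (95% interval -0.49 to 0.93, adjusted p = 0.879). STK4 exceeded STK3 in every library, by ratios of 1.89, 3.34 and 2.98 in verteporfin and 2.34, 3.33 and 2.46 in DMSO.

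STK4 was split mainly between a pair of transcripts, in proportions that varied between libraries and were near equal in verteporfin replicate 3. STK4-201 (ENST00000372801, 2038 bases) had 1.55, 19.5 and 10.1 FPKM in verteporfin and 0, 12.5 and 0 FPKM in DMSO. STK4-202 (ENST00000372806, 6342 bases) had 7.30, 4.00 and 9.46 FPKM in verteporfin and 10.7, 3.61 and 10.8 FPKM in DMSO. STK4-201 led in verteporfin replicates 2 and 3 and in DMSO replicate 2. Neither transcript passed (log2 fold changes 1.81 and -0.19, adjusted p = 0.81 and 0.961 by limma), and the share of STK4 FPKM in STK4-202 was 43.8% ± 28.9 in verteporfin and 60.7% ± 37.9 in DMSO (SD, n = 3; 2-sided exact permutation p = 0.6). Their coding sequences are identical up to base 1305 and end differently, in the part that encodes the C-terminal SARAH domain of MST1, through which Hippo kinases bind each other and SAV1. The ends are shown from coding base 1291, read 5′ to 3′ on the plus strand of chromosome 20, with the 84 and 159 bases after the shared part in capitals.
STK4-201: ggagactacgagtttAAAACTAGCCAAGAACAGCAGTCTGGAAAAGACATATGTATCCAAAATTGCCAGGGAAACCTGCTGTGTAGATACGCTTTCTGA
STK4-202: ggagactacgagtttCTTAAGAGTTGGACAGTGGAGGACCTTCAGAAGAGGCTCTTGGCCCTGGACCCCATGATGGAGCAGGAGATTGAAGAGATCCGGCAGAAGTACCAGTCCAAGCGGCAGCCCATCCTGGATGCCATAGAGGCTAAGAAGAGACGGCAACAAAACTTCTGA

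The STK3 level likewise moved between transcripts. STK3-201 had 3.69, 4.97 and 6.93 FPKM in verteporfin, against 1.16, 5.61 and 1.89 FPKM in DMSO. In DMSO replicate 1 STK3-219 led with 3.32 FPKM and in DMSO replicate 3 STK3-217 with 2.28 FPKM, while STK3-201 led in all 3 verteporfin libraries.

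LATS1 encodes the kinase that phosphorylates YAP and TAZ, and was among the lowest of the 10 genes. LATS1 (ENSG00000131023) had 3.96, 9.77 and 7.16 FPKM in verteporfin replicates 1 to 3, against 1.67, 6.38 and 5.97 FPKM in DMSO replicates 1 to 3. Verteporfin replicates 2 and 3 lay above all DMSO libraries. LATS1 had the highest log2 fold change of the 10 genes, 0.56 (adjusted p = 0.77 by limma), which was 0.08 without DMSO replicate 1 and 0.86 without verteporfin replicate 1. LATS1-207 (7517 bases) had 0.884, 5.65 and 4.39 FPKM in verteporfin and 1.67, 4.50 and 1.25 FPKM in DMSO. LATS1-201, chosen after its values were seen, was higher in each verteporfin library (1.36, 0.828 and 0.896 FPKM) than in any DMSO library (0, 0.479 and 0 FPKM), which did not pass (adjusted p = 0.759 by limma, 0.0461 unadjusted). Its mean in DMSO, 0.16 FPKM, was under the minimum of 0.5 FPKM, so that it entered the test only through verteporfin. LATS1-201 has the same coding sequence of 3393 bases as LATS1-207. Summed, this pair had 2.24, 6.48 and 5.28 FPKM in verteporfin and 1.67, 4.98 and 1.25 FPKM in DMSO, and the groups overlapped (2-sided exact permutation p = 0.2).

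In DMSO replicate 3 most LATS1 FPKM came instead from LATS1-202 (ENST00000392273), at 0.825, 0.653 and 1.39 FPKM in verteporfin and 0, 0.738 and 4.44 FPKM in DMSO. Its coding sequence of 2073 bases leaves that of LATS1-201 (ENST00000253339) after base 2012 and stops 61 bases later, before the part that encodes the kinase domain. Coding bases 1998 to 2073 of both are shown, read 5′ to 3′ on the minus strand of chromosome 6, with the bases after the shared part in capitals.
LATS1-202: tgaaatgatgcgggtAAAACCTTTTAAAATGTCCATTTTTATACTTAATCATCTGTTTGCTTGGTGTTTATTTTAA
LATS1-201: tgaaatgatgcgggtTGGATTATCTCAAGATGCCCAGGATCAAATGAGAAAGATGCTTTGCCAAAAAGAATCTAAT

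**Figure D3:**
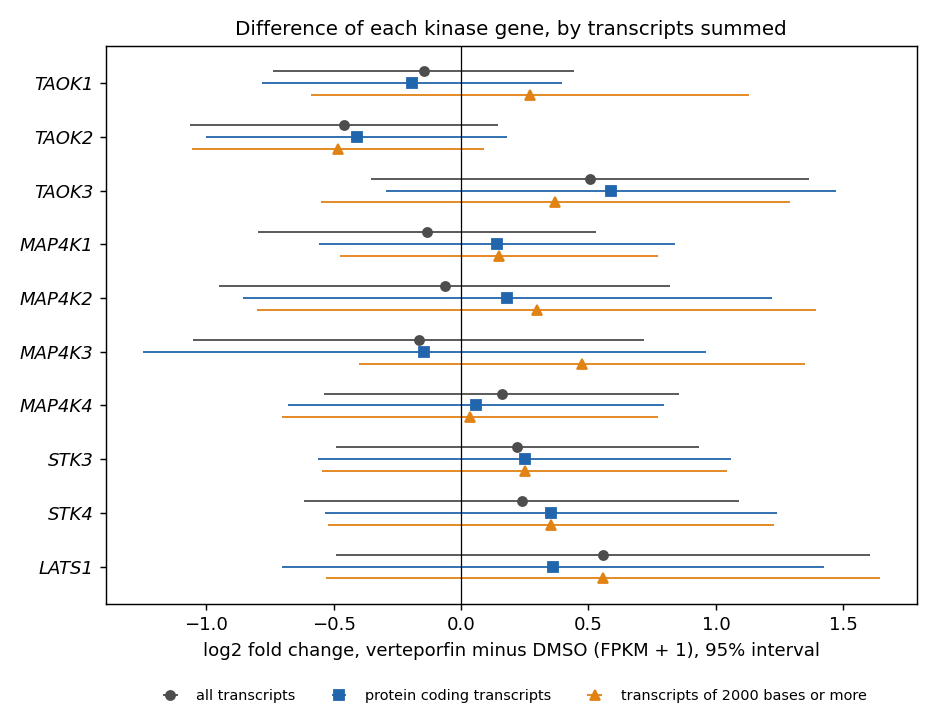
Log2 fold change (verteporfin minus DMSO, FPKM + 1) of each kinase gene with its 95% interval by limma, for sums over all transcripts (circles), protein coding transcripts (squares) and transcripts of 2000 bases or more (triangles). All intervals include 0, and the sign of TAOK1, MAP4K1, MAP4K2 and MAP4K3 depends on which transcripts are summed.

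Across the chain the same genes had the highest and the lowest levels in both groups, but the order between them differed. By mean TAOK3 ranked 4 in verteporfin and 7 in DMSO, and TAOK2 ranked 5 in verteporfin and 3 in DMSO. Per length and summed over all transcripts, MAP4K4 (mean 49.96 FPKM in verteporfin and 44.2 FPKM in DMSO) and MAP4K1 (39.5 and 42.2 FPKM) came first. LATS1 (6.96 and 4.67 FPKM) and STK3 (6.81 and 5.65 FPKM) came last. In verteporfin the ranges of neighbours in this order overlapped throughout, except that TAOK1 (lowest 17.7 FPKM) lay above LATS1 (highest 9.77 FPKM). In DMSO MAP4K1 lay above TAOK2, and STK4 (lowest 11.6 FPKM) above STK3 (highest 6.22 FPKM), while all other neighbours overlapped. The order depended on the transcripts summed. From transcripts of 2000 bases or more MAP4K4 stayed first (mean 41.96 FPKM in verteporfin and 39.6 FPKM in DMSO). The TAOK2 mean (22.7 and 31.9 FPKM) was then above that of MAP4K1 (19.4 and 17.3 FPKM). MAP4K3 (5.73 and 3.66 FPKM) came last, below LATS1 (6.96 and 4.67 FPKM) and STK3 (6.03 and 4.76 FPKM). Summed by family, TAOK1 to TAOK3 had 59.5, 77.1 and 80.5 FPKM in verteporfin and 74.0, 74.1 and 74.8 FPKM in DMSO. MAP4K1 to MAP4K4 had 136.9 ± 17.5 FPKM in verteporfin and 135.1 ± 22.7 FPKM in DMSO, and STK3 with STK4 had 26.1 ± 9.67 FPKM in verteporfin and 21.0 ± 4.22 FPKM in DMSO (SD, n = 3). The groups overlapped for all 3 family sums. The 2-sided exact permutation p values were 1, 0.9 and 0.6 for the TAOK, MAP4K and STK families, each 1 adjusted over the 3 families. With 3 libraries per group the least possible p of this test is 0.1, so no family could have passed 0.05.

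The transcript with the highest FPKM of a kinase gene was not the same in all 6 libraries for any of the 10 genes. Such a leading transcript could hold a small part of its gene, such as 16.4% for MAP4K4-205 in DMSO replicate 2. Of the 80 kinase transcripts, 26 (32.5%) were at 0 in a library and at 1 FPKM or more in another library of the same group, as were 25.1% of all 61975 matched transcripts. Among the 72 kinase transcripts tested, 2 were higher and 3 lower in each verteporfin library than in any DMSO library, where 5.47% and 6.81% of all tested transcripts were, and 3 had an unadjusted p under 0.05, where 6.55% did. The higher ones were TAOK3-202 and LATS1-201 and the lower ones TAOK2-201, MAP4K1-206 and MAP4K4-221. None of these 3 shares of kinase transcripts exceeded that of all transcripts. TAOK3-202, TAOK3-218 and LATS1-201, which had the unadjusted p values under 0.05, reached the minimum mean for the test only through verteporfin.

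Other genes of the Hippo pathway were read from a list of 43, of which 31 were tested. By limma 0 of 31 passed and 1 had an unadjusted p under 0.05, and 15 had a log2 fold change above 0 and 16 below 0, with a median of -0.03. The groups did not overlap for 3 of the 31, all lower in verteporfin, where 7.74% of all genes were lower in that way and 6.49% higher, and 8.84% had an unadjusted p under 0.05. The 3 were TEAD4, the DNA-binding partner of YAP (18.5 ± 2.87 FPKM in verteporfin and 29.1 ± 0.721 FPKM in DMSO), NF2, the upstream scaffold merlin (17.5 ± 1.90 and 25.6 ± 4.56 FPKM), and SIK1, a salt-inducible kinase (2.41 ± 0.689 and 3.82 ± 1.005 FPKM; SD, n = 3 each). PPP2R1A, the scaffold of the phosphatase PP2A, which in the STRIPAK complex acts against STK3 and STK4, had 44.0 ± 12.8 FPKM in verteporfin and 66.4 ± 14.1 FPKM in DMSO (SD, n = 3; log2 fold change -0.60, adjusted p = 0.594). For the adaptor gene RASSF1 the log2 fold change was 0.78 (adjusted p = 0.572), and for AMOT, which encodes a binder of YAP, it was -0.67 (adjusted p = 0.599). LATS2, TNIK, YAP1 and WWTR1 were among the 12 genes of the list with no matched transcript and were not analysed here.

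TAOK and MAP4K kinases also feed the stress kinases JNK and p38, and MAP4K1 binds adaptors of the antigen receptor. Of 15 such genes 14 were tested, 0 passed and 0 had an unadjusted p under 0.05 by limma, and 10 had a log2 fold change above 0 and 4 below 0, with a median of 0.25. The groups did not overlap for 1 gene with higher and 1 with lower verteporfin values, where 6.49% and 7.74% of all genes did so. MAP3K1, a kinase upstream of JNK, was higher in each verteporfin library (13.1, 11.9 and 8.52 FPKM) than in any DMSO library (5.96, 6.15 and 7.51 FPKM), at a log2 fold change of 0.68 (adjusted p = 0.567). MAPK9, which encodes JNK2, was lower in each verteporfin library (9.67, 11.5 and 12.2 FPKM) than in any DMSO library (17.2, 15.8 and 15.2 FPKM), at a log2 fold change of -0.50 (adjusted p = 0.629). MAP2K3, an activator of p38, had 48.7, 30.7 and 35.8 FPKM in verteporfin and 16.5, 14.6 and 37.7 FPKM in DMSO (log2 fold change 0.82, adjusted p = 0.564), so that DMSO replicate 3 lay within the verteporfin range. On the log2 scale LCP2, the adaptor SLP-76 that MAP4K1 phosphorylates in T cells, differed by 0.70 (adjusted p = 0.666), MAPK14, which encodes p38 alpha, by 0.34 (adjusted p = 0.821), and MAP2K6, another activator of p38, by -0.36 (adjusted p = 0.805).

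**Figure D4:**
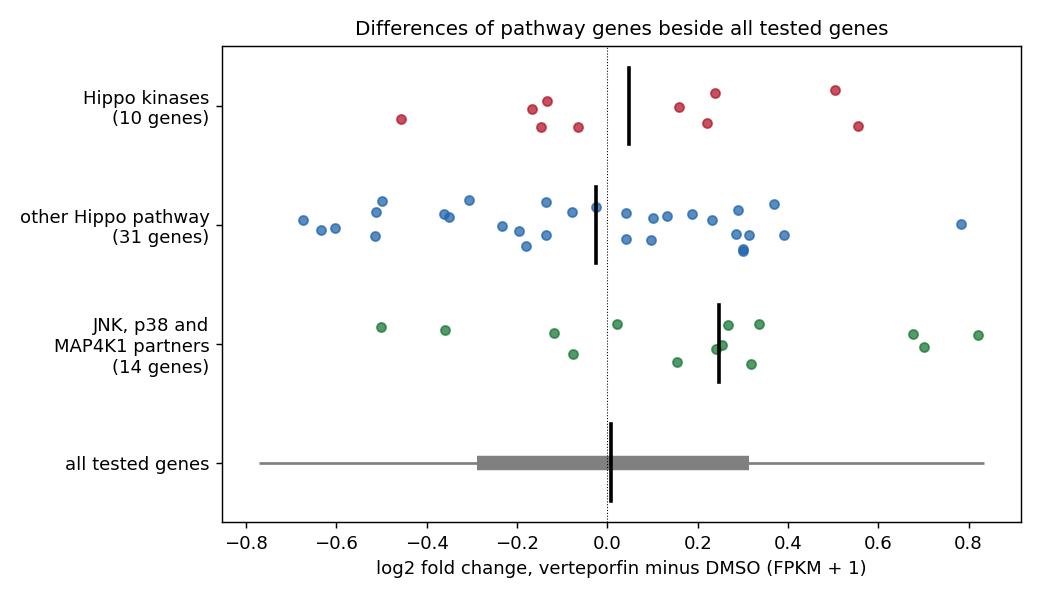
Log2 fold change (horizontal axis, verteporfin minus DMSO, FPKM + 1) of the 10 kinases, 31 other Hippo pathway genes and 14 genes of the JNK and p38 route or partners of MAP4K1, 1 point per gene, with medians as black bars; vertical scatter within a row has no meaning. The lowest row gives all 12952 tested genes by their median, the range from percentile 25 to 75 (thick bar, -0.29 to 0.31) and from percentile 5 to 95 (thin line, -0.77 to 0.83), which holds all 10 kinases.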

How the data were processed

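RNA from NALM6 cells was sequenced after a stranded KAPA preparation, per the labels' protocols. The authors deposited FPKM per Ensembl transcript, per the file headers. Listed in the submitters' processing notes, without their roles, are the build hg18 and StringTie 1.3.3, HISAT2 2.1.0, STAR, edgeR, cutadapt and FastQC, so no genome coordinates are given. FPKM do not keep the depth, which is unknown, so precision is read from the spread of 3 libraries per group.

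The 62250 entries with unique identifiers were used. GENCODE 29 named 61975 of them, and 275 were left out. A further 4765 entries of whole numbers (tolerance 0) were set aside. FPKM were summed per gene. Genes averaging 0.5 FPKM or more across 6 libraries entered the test, done on log2(FPKM + 1) (the scale of each fold change, which understates changes of low genes) with limma 3.58.1 in R 4.3.3, 2-sided, with a variance trend and Benjamini-Hochberg adjustment over 12952 genes. Transcripts were tested alike, and shares and family sums by exact permutation, whose least possible p here is 0.1. The test was tried on simulated data, with changes given to more abundant genes only. It called 5.2% of genes with a log2 change of 1 and 64.4% with a change of 2. Of genes without a change it called 0.0392%. Most changes of 1 or less on the log2 scale would thus be missed. Python 3.11.15, pandas 2.3.3 and scipy 1.17.1 did the rest. Coding sequences came from GENCODE 29 (GRCh38), joined by identifier.

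Transcripts of at least 1 FPKM and 10% of their gene, the 6 genes of each list with the smallest p and the 3 nearest to MAP4K1 were named by rule. Other transcripts were named after their values were seen. Members and lists were chosen with earlier results of these data known. Alternatives were other minimums, pseudocounts, scalings and models, and leaving out each library. Not every sequence compared is reported here.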

Additional observations from a re-analysis of the deposited data

Results flagged for a closer look

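A further set of entries in the deposited table holds whole numbers, whose unit is not given in the sources used here. It touched the kinases in 8 entries of 5 genes, none of which entered a comparison above. For TAOK1 transcript ENST00000261716 (TAOK1-201), 4 entries summed to 4, 4 and 7 in verteporfin replicates 1 to 3, 15 in all, against 0 in each DMSO library. For TAOK3 transcript ENST00000419821 (TAOK3-202) the sum was 6, all of it in verteporfin replicate 2, against 0 in DMSO. Both are listed because values in data outside the comparisons exceeded those of the controls. The entries of MAP4K3, STK3 and STK4 were in DMSO libraries only, with sums of 2, 2 and 1. Over the whole table such entries summed to 5883, 9562 and 5130 in verteporfin and 3273, 2719 and 2071 in DMSO, and the part of these totals in the TAOK1 and TAOK3 sums was not tested.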

How the results depend on the processing

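No kinase gene passed under any setting run, with adjusted p values from 0.0727 (TAOK3, library weights) upward. TAOK2, TAOK3, STK3 and LATS1 kept their direction under all 17 alternatives each, but some of these could not turn a sign. The fits without a variance trend, with the replicate block and with other minimums leave the log2 fold change itself unchanged. For LATS1 the value from transcripts of 2000 bases or more also equalled the main one. For STK3 protein coding transcripts and transcripts of 2000 bases or more gave the same value. Depth is unknown, so what it limits cannot be given. The causes of the changes below were not tested.

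Over all genes, limma called 2 genes, 84 with the replicate block, 1081 with library weights, 0 with pseudocounts of 0.1 or 0.01, with equal medians or without a variance trend, and 0 to 12 as libraries were left out (11 without verteporfin replicate 1, 12 without verteporfin replicate 2, 1 without DMSO replicate 3 and 0 without each of the others). Over all transcripts it called 17, 0 with the replicate block and 0 in every fit that left out a library. No kinase gene or kinase transcript was among them. With library weights 2 other Hippo pathway genes (TEAD4 and RASSF1) and 1 gene of the JNK, p38 and MAP4K1 partner list (LCP2) passed. The replicate numbers were not treated as pairs, because the labels do not say that equal numbers share a culture. Deviations of libraries with equal numbers correlated at 0.389, 0.509 and 0.0985. Verteporfin replicate 1 correlated at -0.396 and 0.073 with DMSO replicates 2 and 3. For verteporfin replicate 2 the values were -0.464 and -0.132 with DMSO replicates 1 and 3. For verteporfin replicate 3 they were 0.138 and -0.199 with DMSO replicates 1 and 2.

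The log2 fold change turned sign from transcripts of 2000 bases or more for TAOK1 (0.27), MAP4K1 (0.15), MAP4K2 (0.30) and MAP4K3 (0.47), from protein coding transcripts for MAP4K1 (0.14) and MAP4K2 (0.18), both choices made after the data were seen, and with library weights for MAP4K1 (0.047), GRAMD1B (0.048), RFX1 (0.18) and SCAMP4 (0.13). With a pseudocount of 0.1 the transcripts MAP4K3-201 (-0.032) and LATS1-202 (0.48) turned. Leaving out single libraries turned the sign of MAP4K1 (-0.29 to 0.13), MAP4K2 (-0.44 to 0.33), MAP4K3 (-0.42 to 0.21), MAP4K4 (-0.058 to 0.37), STK4 (-0.015 to 0.63), GRAMD1B (-0.32 to 0.18), RFX1 (-0.19 to 0.25) and SCAMP4 (-0.27 to 0.17). It did so for the transcripts TAOK1-201 (-0.042 to 0.63), TAOK2-202 (-0.57 to 0.22), TAOK2-206 (-0.75 to 0.025), TAOK3-209 (-0.20 to 0.20), MAP4K1-212 (-0.49 to 0.85), MAP4K2-208 (-0.32 to 0.58), MAP4K2-202 (-0.26 to 1.23), MAP4K2-201 (-0.069 to 0.43), MAP4K2-206 (-0.42 to 0.17), MAP4K3-211 (-1.19 to 0.21), MAP4K3-201 (-0.47 to 0.33), MAP4K4-210 (-0.64 to 0.50), MAP4K4-203 (-0.25 to 1.48), MAP4K4-205 (-0.24 to 1.06), STK4-202 (-0.64 to 0.11), LATS1-207 (-0.0086 to 0.90) and LATS1-202 (-0.67 to 0.55). The difference in the share of the most abundant transcript, in percentage points, ranged over 0, with -12.3 to 5.48 for TAOK2, -4.28 to 6.47 for MAP4K2, -20.9 to 2.69 for MAP4K4 and -38.1 to 1.47 for LATS1. The log2 difference of family sums did so for TAOK1 to TAOK3 (-0.13 to 0.085) and MAP4K1 to MAP4K4 (-0.079 to 0.15).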
